A study of Mus musculus with 8 samples.

Results

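The comparison described here set wild-type (wt) mouse forebrain at embryonic day (E) 15.5, with 2 libraries, against wt forebrain at E13.5, with 2 libraries, and so used 4 of the 8 libraries of the study. The study used bulk RNA sequencing to compare control embryos with EED-cKO embryos, in which a Sox1-driven Cre removes Eed, a core subunit of the Polycomb repressive complex PRC2. The other 4 libraries, from wt spinal cord at E13.5 and EED-cKO forebrain at E15.5, appear below only as reference values. The labels give no strain, sex or number of embryos for any group, and do not say whether a library came from 1 embryo or from a pool. The p-values therefore measure the spread between these libraries, which may be technical. The E13.5 libraries differed in sex-linked transcripts, given below, and so came from different embryos.

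Between these ages the embryonic forebrain passes from early to mid neurogenesis. Radial glia line the ventricles, divide, and give rise to intermediate progenitors and neurons. Cortical neurons are born in order, the deep layers before the upper layers, while the ganglionic eminences of the ventral forebrain produce striatal projection neurons and GABAergic interneurons. Glia are made mostly later, from the same progenitors.

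Levels were deposited as RPKM, reads per kilobase of transcript scaled to the mapped reads, rounded to 0.1. No read counts were given, so sequencing depth cannot be stated. Over all genes the RPKM summed to 395741 and 397320 in the E13.5 libraries and 775646 and 843296 in the E15.5 libraries. Genes of the cytoplasmic ribosome took 4.14% and 4.19% of that sum at E13.5 and 9.52% and 11.3% at E15.5. These gaps between the ages are wider than those between replicates, and whether they come from the tissue or from the processing cannot be told apart. Ribosomal, Gapdh-like and other multi-copy genes were therefore left out, by patterns in their names. Copies with other names may remain among the genes tested. The 4 libraries were then brought to the same distribution (quantile normalization of log2(RPKM + 1)) before any comparison. A change below is a difference on this normalized log2 scale, E15.5 minus E13.5, with its standard error. It says how a gene moved against the other genes, and an RPKM value given beside it is the deposited level. For every change below, age and processing cannot be told apart. The names of the E15.5 columns were first sorted alphabetically, taking no account of case or hyphens. This raised the correlation between the ages over all genes from 0.760 to 0.948 on the log2 scale, and 509 of 510 windows of 40 neighbouring names fitted best with no further shift.

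The replicates were much closer to each other than the ages were. Over the 13667 genes tested, normalized levels correlated with r = 0.995 between the E13.5 libraries, 0.992 between the E15.5 libraries and 0.876 between the means of the ages. At a Benjamini-Hochberg adjusted p under 0.05 in limma, 4509 genes were higher at E15.5 (33.0% of those tested) and 4622 were lower (33.8%), so 66.8% of all genes were called. With a change of at least 1 as well, 1510 genes (11.0%) were higher and 1360 (9.95%) lower. The RPKM of the ages did not overlap for 87.4% of genes. Without normalization the median gene changed by 0.54, and 83% of the calls were higher at E15.5, against 49.4% with it. The direction of a single gene near 0 therefore depends on the scaling, and the counts below are read against these shares. An exact two-sided permutation test of 2 against 2 libraries cannot give a p under 0.333, so the calls are limma's, whose error is drawn from many genes together. With 1 library left out the fit has fewer degrees of freedom. List counts that moved by over 1.5 times without a library, and splits of higher to lower calls that moved with the scaling, are given beside the list.

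**Figure D1:**
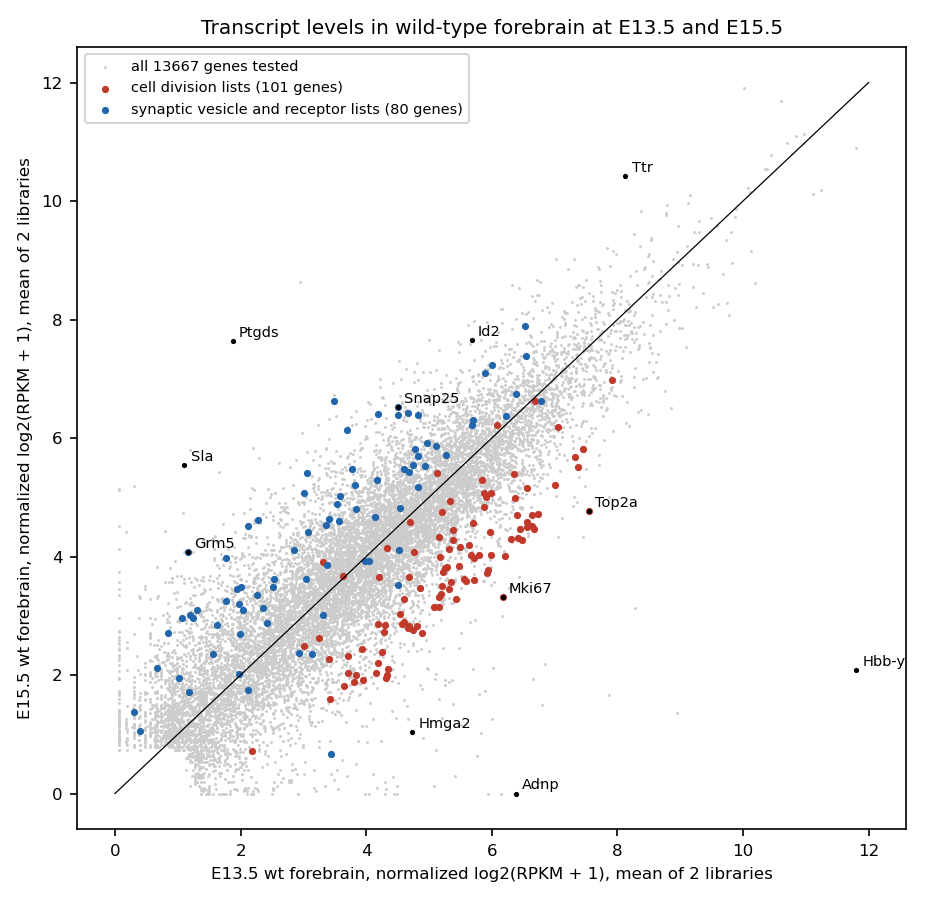
Normalized log2(RPKM + 1) of each tested gene at E13.5 (x axis) and E15.5 (y axis), each the mean of 2 libraries, with the line of equal levels. Of the 101 genes on the cell division lists (red), 94 were called lower, and most lie below the line, whereas most of the synaptic vesicle and receptor genes (blue) lie above it.

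Most of the genes of cell division fell. Of 46 genes of the G1/S transition and DNA replication, 43 were lower at E15.5 and 0 were higher, with a median change of -1.36. Of 55 genes of G2 and mitosis, 51 were lower and 1 was higher, with a median of -1.84. The median over all genes tested was -0.02 and the share called lower 33.8%. Across both lists, 86 of 101 genes had lower RPKM in both E15.5 libraries than in either E13.5 library, although the E15.5 columns sum to more. Over all genes tested, RPKM did not overlap between the ages for 87.4%, counting both directions. In bulk tissue, fewer dividing cells and less of each transcript per cell cannot be told apart.

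Top2a, the topoisomerase that untangles replicated chromosomes, was at 122.7 and 146.4 RPKM at E13.5 and at 34.4 and 30.4 at E15.5. It fell by 2.77 ± 0.12 (adjusted p = 6.7e-06). Mki67, which codes for the proliferation marker Ki-67, was at 50.0 and 58.8 RPKM at E13.5 and at 12.9 and 8.5 at E15.5. It fell by 2.86 ± 0.16 (adjusted p = 1.6e-05). Both E15.5 libraries were below both E13.5 libraries for each gene, with no overlap. The kinetochore genes Cenpe and Cenpf fell by 2.32 ± 0.13 and 2.24 ± 0.13. Among the replication genes, Clspn, which codes for the checkpoint adaptor claspin, went from 14.7 and 16.5 RPKM to 4.0 and 3.1 and fell by 2.36 ± 0.12. Mcm3 and Mcm2, subunits of the replicative helicase, fell by 2.21 ± 0.10 and 2.12 ± 0.10, and the kinase gene Cdk2 by 2.19 ± 0.11.

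The member that went the other way was Pttg1, the gene of securin, which holds sister chromatids together until anaphase. Its RPKM was 7.1 and 8.1 at E13.5 and 15.7 and 17.8 at E15.5, a change of 0.59 ± 0.13 (adjusted p = 0.0059). The call was lost, with adjusted p of 0.12, 0.072 and 0.074, without the first or the second E13.5 library or without the second E15.5 library.

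The promoters of these genes are shown because they are the members that moved together. RefSeq windows of 300 bases, from 250 before to 50 after the annotated start, were found for 46 of the 55 G2 and mitosis genes, 38 of the 46 G1/S genes and 10497 of all genes tested. They were searched on both strands for TTTGAA, the core of the cell cycle homology region (CHR) found in many mitotic promoters, for CCAAT, and for TTTNNCGC, a form of the E2F site. A gene was counted if any of its windows held the motif, and none of the 3 motifs contains another. TTTGAA was in 32 of the 46 G2 and mitosis genes (69.6%), in 6 of the 38 G1/S genes (15.8%) and in 13.6% of all genes with a window. TTTNNCGC was in 7 (15.2%), in 17 (44.7%) and in 9.58%, in the same order. CCAAT was in 34 (73.9%), in 24 (63.2%) and in 42.9%. TTTGAA and CCAAT occurred in the same window for 60.9% of the G2 and mitosis genes and 5.70% of all genes. A match is a string of letters and does not show binding.

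The windows of 6 of these genes follow, from the GRCm38.p6 build, written 5′ to 3′ on the strand of the gene, with every match to 1 of the 3 motifs in capitals. Mki67 (chr7:135716330-135716629, minus strand), Top2a (chr11:99024140-99024439, minus strand) and Cenpf (chr1:189688037-189688336, minus strand) are G2 and mitosis genes that fell. Pttg1 (chr11:43425932-43426231, minus strand) is the member called higher, a call that was lost without some single libraries, as given above. Its window held none of the 3 motifs. How many members that fell also lack all 3 was not counted. Clspn (chr4:126556730-126557029, plus strand) and Mcm3 (chr1:20820263-20820562, minus strand) are G1/S genes that fell.
Mki67: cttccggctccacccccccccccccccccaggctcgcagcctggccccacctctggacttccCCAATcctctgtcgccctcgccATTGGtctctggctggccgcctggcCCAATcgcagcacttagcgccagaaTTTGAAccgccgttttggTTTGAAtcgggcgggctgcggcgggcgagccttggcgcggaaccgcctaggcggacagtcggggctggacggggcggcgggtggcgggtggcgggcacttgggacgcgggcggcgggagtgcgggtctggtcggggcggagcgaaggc
Top2a: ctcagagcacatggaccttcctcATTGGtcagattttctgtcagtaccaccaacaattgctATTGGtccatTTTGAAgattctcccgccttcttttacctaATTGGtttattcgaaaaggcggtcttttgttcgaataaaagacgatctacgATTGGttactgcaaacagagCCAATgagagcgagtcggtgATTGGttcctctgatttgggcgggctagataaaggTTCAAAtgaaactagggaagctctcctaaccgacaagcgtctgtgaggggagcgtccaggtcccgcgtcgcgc
Cenpf: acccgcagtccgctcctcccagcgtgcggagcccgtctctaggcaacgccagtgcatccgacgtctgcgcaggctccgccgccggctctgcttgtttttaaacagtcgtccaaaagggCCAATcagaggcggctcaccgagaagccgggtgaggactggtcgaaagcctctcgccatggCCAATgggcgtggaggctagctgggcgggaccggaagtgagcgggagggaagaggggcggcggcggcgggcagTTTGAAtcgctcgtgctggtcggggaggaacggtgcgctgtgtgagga
Pttg1: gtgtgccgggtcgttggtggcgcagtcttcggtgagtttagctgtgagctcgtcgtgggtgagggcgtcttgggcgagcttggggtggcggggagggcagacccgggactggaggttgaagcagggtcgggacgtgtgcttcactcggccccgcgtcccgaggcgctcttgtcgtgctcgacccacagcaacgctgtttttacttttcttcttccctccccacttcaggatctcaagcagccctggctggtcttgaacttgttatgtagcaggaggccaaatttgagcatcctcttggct
Clspn: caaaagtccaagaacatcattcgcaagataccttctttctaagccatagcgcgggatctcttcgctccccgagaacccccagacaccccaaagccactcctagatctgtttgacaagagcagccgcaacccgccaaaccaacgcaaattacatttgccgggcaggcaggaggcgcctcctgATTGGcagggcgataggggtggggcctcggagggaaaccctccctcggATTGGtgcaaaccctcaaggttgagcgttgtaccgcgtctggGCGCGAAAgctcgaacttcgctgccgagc
Mcm3: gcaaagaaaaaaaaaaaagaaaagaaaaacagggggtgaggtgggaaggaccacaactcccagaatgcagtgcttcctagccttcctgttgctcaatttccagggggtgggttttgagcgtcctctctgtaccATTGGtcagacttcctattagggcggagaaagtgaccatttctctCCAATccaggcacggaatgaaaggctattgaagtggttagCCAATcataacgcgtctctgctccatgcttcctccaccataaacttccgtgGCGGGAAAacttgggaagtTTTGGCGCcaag
The Mki67 window held 2 matches to TTTGAA and 3 to CCAAT, and the Top2a window 2 and 6. The Cenpf window held 1 match to TTTGAA, beginning at base 3 of the transcript, and 2 to CCAAT. The Clspn and Mcm3 windows held no TTTGAA, but 1 and 2 matches to TTTNNCGC, all within the transcribed 50 bases.

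Among 14 tested cell cycle inhibitors and D cyclins, 8 were lower and 4 higher, and 6 each without normalization. Ccnd1, the cyclin D1 gene, fell by 2.47 ± 0.08, from 102.6 and 99.3 RPKM to 30.7 and 28.6. Ccnd2 fell by 1.98 ± 0.11, from 195.5 and 203.4 RPKM to 103.8 and 86.3. Rbl1, the gene of the pocket protein p107, fell by 1.93 ± 0.13. Btg1, an antiproliferative gene, rose by 1.28 ± 0.08, from 23.2 and 23.7 RPKM to 92.6 and 98.3. Cdkn1a, the gene of the inhibitor p21, changed by 0.51 ± 0.11, a call that was lost without either E13.5 library (adjusted p = 0.095 and 0.094). Without the first or the second E13.5 library, 1 gene of this list was called higher in place of 4.

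Of 45 apical progenitor (radial glia) genes, 33 were lower and 8 higher, with a median change of -1.15, and 22 were lower and 12 higher without normalization. The 2 directions followed a division within the list. Of its 36 genes that are not also on the astrocyte list, 31 were lower and 1 higher (median -1.24). Of the 9 that radial glia share with astrocytes, 7 were higher and 2 lower (median 0.70). Nes, the gene of the intermediate filament nestin, fell by 2.44 ± 0.10, from 108.0 and 121.7 RPKM to 37.1 and 32.1. Pax6, a transcription factor of cortical progenitors, fell by 1.62 ± 0.10, from 54.6 and 60.4 RPKM to 31.1 and 27.9. Gli3, a Hedgehog pathway repressor that patterns the dorsal telencephalon, was at 21.3 and 23.9 RPKM and then at 3.7 and 2.7, a fall of 3.02 ± 0.13. Sox3, a factor that maintains progenitors, fell by 2.77 ± 0.11. For each of these genes the ages did not overlap. Some of the members that rose encode proteins of the extracellular matrix. Cspg5, a brain proteoglycan, went from 20.6 and 16.5 RPKM to 167.8 and 175.9 and rose by 2.43 ± 0.12. The matrix genes Bcan (brevican) and Tnc (tenascin C) rose by 2.11 ± 0.16 and 1.88 ± 0.15. Mfge8, a secreted glycoprotein gene, rose by 0.97 ± 0.09. Without the first and the second E13.5 library 5 and 4 of the 45 genes were higher.

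The genes that carry progenitors into neuronal differentiation were lower as well. Of 26 tested, 18 were lower and 3 higher, with a median of -0.73. Without normalization 12 were lower and 8 higher, and without either E13.5 library 1 was higher. Eomes (Tbr2), the marker of intermediate progenitors, was at 64.2 and 56.3 RPKM at E13.5 and at 33.0 and 33.4 at E15.5, a fall of 1.53 ± 0.10. The proneural factor Neurog2 fell by 2.05 ± 0.10, from 123.7 and 120.2 RPKM to 46.0 and 54.4. Its relative Neurog1 fell by 2.80 ± 0.12, from 11.5 and 12.5 RPKM to 1.7 and 1.4. Nhlh1, expressed in newborn neurons, fell by 2.88 ± 0.14, from 25.1 and 24.0 RPKM to 3.6 and 4.4. Tac2, which encodes neurokinin B, rose from 0.0 and 0.1 RPKM to 4.3 and 6.7.

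The heterochronic list holds genes that are high in young progenitors of many tissues, several of them targets of the let-7 microRNA or its regulators. Of 14 tested, 11 were lower and 2 higher, with a median of -1.10, and 1 was higher without either E13.5 library or the first E15.5 library. Hmga2, a chromatin-bending protein gene, was at 17.1 and 25.1 RPKM at E13.5 and at 1.1 and 1.7 at E15.5. It fell by 3.70 ± 0.23 (adjusted p = 2.4e-05), the greatest fall of the list. The RNA-binding protein genes Igf2bp3 and Igf2bp1 fell by 2.47 ± 0.09 and 2.38 ± 0.12. Lin28b, which blocks let-7 maturation, was low, at 2.5 and 4.2 RPKM and then 2.1 and 1.3. Its change of -1.11 ± 0.21 lost its call without the second E13.5 library (adjusted p = 0.064) and without either E15.5 library (0.090 and 0.13).

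**Figure D2:**
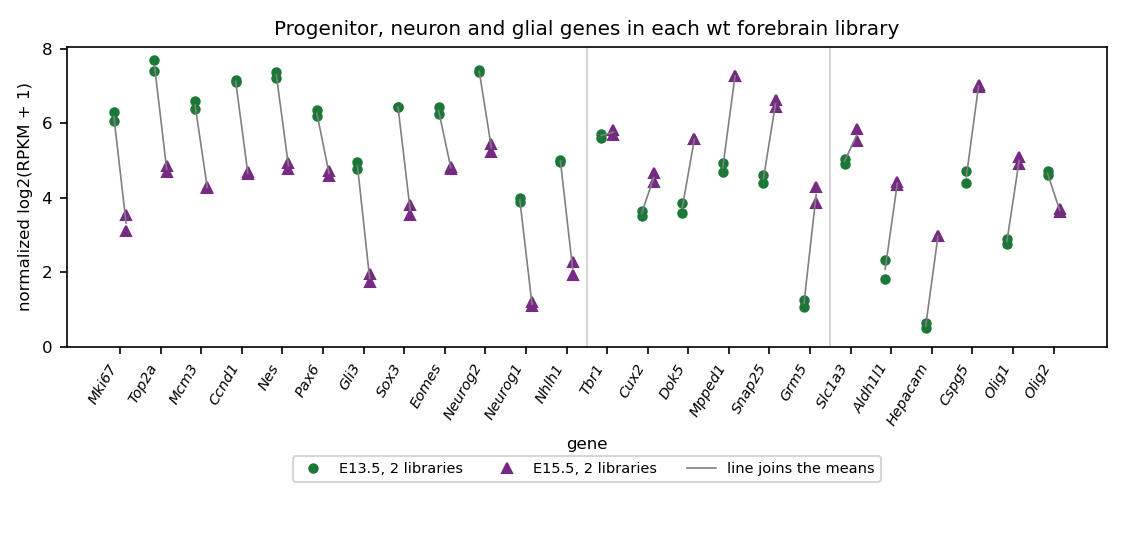
Normalized log2(RPKM + 1) of 24 genes in each of the 4 wt forebrain libraries, with circles for E13.5, triangles for E15.5 and a line joining the means. The progenitor genes (left block) are lower in both E15.5 libraries, most neuronal genes (middle) are higher, Tbr1 is nearly level, and Olig1 and Olig2 (right) move in opposite directions.

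Factors that set up telencephalic identity were mostly lower. Of 24 tested, 18 were lower and 1 higher (median -1.18). Without normalization 14 were lower and 6 higher, and 0 were higher without either E13.5 library or the first E15.5 library. Nr2e1 (Tlx), an orphan receptor of forebrain progenitors, fell by 2.27 ± 0.10, from 42.6 and 46.3 RPKM to 13.1 in both E15.5 libraries. Dmrta1 and Dmrt3, transcription factors of dorsal progenitors, fell by 2.24 ± 0.14 and 2.21 ± 0.13. Wnt8b, a signal of the cortical hem, fell by 2.27 ± 0.14. Lhx2, a selector gene of the cortex, stayed abundant, at 169.6 and 169.1 RPKM and then 137.1 and 148.0, and fell by 1.22 ± 0.08. Emx1 fell by 1.14 ± 0.14, with an adjusted p of 0.061 without normalization and of 0.054 without the first E13.5 library. Its RPKM was 59.3 and 56.1 at E13.5 and 36.5 and 50.2 at E15.5, against 0.1 and 0.0 in E13.5 spinal cord. None of the 39 Hox genes, which mark hindbrain and cord, reached 1 RPKM in any of the 4 libraries. The highest was 0.1 at E13.5 and 0.4 at E15.5, which matches the labelled tissue.

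Genes of cortical projection neurons were more often higher than lower. Of 25 genes common to excitatory cortical neurons, 16 were higher and 1, Emx1, was lower, with a median of 0.87. Without the first E13.5 library 0 were lower. Mpped1, a cortical phosphoesterase gene, went from 23.6 and 20 RPKM to 199.3 and 217.5 and rose by 2.46 ± 0.10. Sla, an adaptor of tyrosine kinase signalling, was at 1.0 and 0.7 RPKM at E13.5 and at 54.4 and 62.3 at E15.5. It rose by 4.44 ± 0.12 and its level in EED-cKO forebrain of the same age was 4.4 and 6.3 RPKM. Camk2b, a calcium-dependent kinase gene, rose by 2.62 ± 0.14, and Tiam2, an activator of Rac, by 2.12 ± 0.17.

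Of 23 upper-layer genes, 15 were higher and 6 lower (median 0.46). Cux2, an upper-layer factor, rose by 0.97 ± 0.12, from 9.7 and 8.7 RPKM to 29.9 and 24.6. The adaptor gene Dok5 and the cadherin gene Cdh13 rose by 1.85 ± 0.12 and 2.22 ± 0.18. Lhx2, described above, is on this list and fell by 1.22 ± 0.08. Without the first or the second E13.5 library, 10 genes of this list were called higher and 3 lower, and without normalization 16 and 2.

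Of 22 deep-layer and subplate genes, 11 were higher and 3 lower (median 0.34). Tbr1, the factor of corticothalamic neurons, was at 40.4 and 37.4 RPKM and then at 70.6 and 65.3. Its change of 0.09 ± 0.10 was not called (adjusted p = 0.42), and it was called with scaling by the median (0.32) and without normalization (0.79). Nxph3, a ligand of neurexins, rose by 2.36 ± 0.14, from 3.8 and 3.1 RPKM to 28 and 34.5. Pcp4, a calmodulin-binding protein gene, rose by 2.14 ± 0.14, and Hs3st4, an enzyme of heparan sulfate, by 1.97 ± 0.17. St18, a zinc finger factor with over 20 RefSeq transcripts, fell by 1.67 ± 0.15. Without either E13.5 library 1 of the genes was lower, and without normalization 18 were higher and 1 lower.

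Of 14 Cajal-Retzius cell genes, 10 were lower and 2 higher (median -0.81), with 5 and 6 lower without the first and the second E13.5 library and 6 without the second E15.5 library, and 1 higher without either E13.5 library. Without normalization 5 were lower and 2 higher. These early-born cells of the cortical surface express Ebf2, which fell by 2.05 ± 0.16, from 7.5 and 6.3 RPKM to 2.0 and 1.2. Calb2 (calretinin), which they share with interneurons, rose by 1.33 ± 0.09.

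Genes of the ventral forebrain moved in both directions. Of 34 GABAergic and ganglionic eminence genes, 14 were higher and 16 lower (median -0.23), a balance that turned without normalization, with 16 higher and 8 lower. Nkx2-1, the factor of the medial ganglionic eminence, fell by 2.09 ± 0.10, from 52.2 and 57.5 RPKM to 19.4 and 19.2. Gsx2 and Gsx1, factors of ventral progenitors, fell by 1.56 ± 0.12 and 1.29 ± 0.11. Dlx2, common to GABAergic precursors, fell by 1.14 ± 0.10, from 69.2 and 74.9 RPKM to 57.6 and 53. The peptide gene Npy of interneurons rose by 2.26 ± 0.11, from 14.4 and 12.1 RPKM to 97.9 and 111.9. Nxph1, a neurexin ligand of interneurons, rose by 2.28 ± 0.12, from 2.6 and 2.4 RPKM to 25 and 20.7. The calcium-binding protein gene Calb1 rose by 1.43 ± 0.14. Gad1, the GABA-synthesizing enzyme gene, went from 20.5 and 21.1 RPKM to 52.5 and 45.7. Its change of 0.59 ± 0.10 lost its call without either E13.5 library (adjusted p = 0.073 and 0.064). With 1 E13.5 library left out, 8 or 9 genes of the list were called higher and 9 or 10 lower.

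Of 24 striatal projection neuron genes, 14 were higher and 6 lower (median 0.81). Ppp1r1b, which encodes the dopamine-regulated inhibitor DARPP-32, was at 4.4 and 3.0 RPKM and then at 39.3 and 46.8. It rose by 2.70 ± 0.16 (adjusted p = 2.1e-05). The nuclear receptor gene Rxrg rose by 2.62 ± 0.12, from 1.7 and 1.6 RPKM to 20.7 and 22.7. The peptide genes Tac1 (substance P) and Pdyn (dynorphin) rose by 2.09 ± 0.10 and 1.89 ± 0.12. Isl1, a factor of newborn striatal neurons, fell by 1.51 ± 0.11, from 51.4 and 56.7 RPKM to 32.0 and 27.5. Without either E13.5 library 11 genes were called higher and 2 or 3 lower, and without the second E15.5 library 3 were lower. Without normalization 19 were higher and 2 lower.

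**Figure D3:**
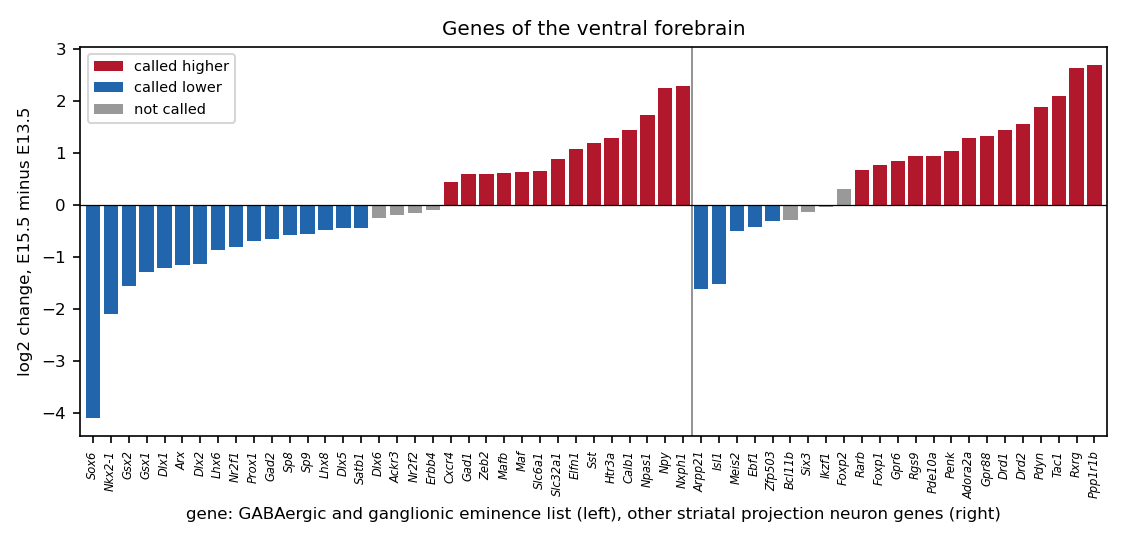
Change (E15.5 minus E13.5, normalized log2 scale) of each tested GABAergic and ganglionic eminence gene (left) and of the striatal projection neuron genes not on that list (right), ordered by change within each list. Progenitor factors such as Nkx2-1 and Gsx2 stand at the lower end of the left block and neuronal genes such as Npy and Ppp1r1b at the upper ends. Sox6, the lowest bar, has over 50 RefSeq transcripts.

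Diencephalic and hypothalamic genes were mostly lower, with 20 of 36 lower and 5 higher (median -0.45). Without the first and the second E13.5 library 10 and 13 were lower and 2 higher, and without either E15.5 library 3 were higher. Without normalization 10 were lower and 7 higher. Dbx1, a progenitor factor, fell by 2.46 ± 0.13, from 10.9 and 9.0 RPKM to 1.7 and 1.6. Otp, needed for neuroendocrine neurons, fell by 1.46 ± 0.12. Avp, the vasopressin gene of hypothalamic neurons, went from 0.1 and 0.0 RPKM to 21.3 and 28.9 and was among the 12 genes with the greatest rise. How much of the diencephalon each dissection held was not measured, so its part in these values was not tested.

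Genes of neurotransmitter receptors rose, with the highest median of the lists plotted. Of 36 genes of glutamate, GABA and glycine receptors tested, 31 were higher and 0 lower, against 33.0% higher among all genes, with a median change of 1.22. Grm5, a metabotropic glutamate receptor gene, was at 1.1 and 0.8 RPKM at E13.5 and at 23.0 and 15.6 at E15.5, and rose by 2.91 ± 0.17 (adjusted p = 1.8e-05). Grin1, the obligatory subunit of NMDA receptors, rose by 2.34 ± 0.13, from 3.4 and 3.0 RPKM to 32.1 and 26.1. Gabra5, a GABA-A receptor subunit, rose by 2.39 ± 0.14, and Gabbr2, a GABA-B receptor subunit, by 2.21 ± 0.22. With 1 library left out in turn, 24 to 30 members were higher. Without the first E15.5 library, 1 was lower.

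Of 44 synaptic vesicle and release genes, 32 were higher and 5 lower (median 0.87), with 20 higher and 2 or 3 lower without either E13.5 library and 3 lower without the second E15.5 library. Snap25, a membrane-fusion protein of the nerve terminal, was at 19 and 16.5 RPKM and then at 127.7 and 115.9, and rose by 2.02 ± 0.11. Sncb, which encodes beta-synuclein, went from 9.8 and 7.5 RPKM to 135.7 and 129.9 and rose by 3.15 ± 0.13. Cplx1 (complexin) and Amph (amphiphysin) rose by 2.44 ± 0.13 and 2.36 ± 0.12. Of 37 postsynaptic genes, 23 were higher and 5 lower (median 0.52), with 15 higher and 1 lower without either E13.5 library, and 3 and 2 lower without the first and the second E15.5 library. Without normalization 32 were higher and 1 lower. Nrgn (neurogranin), a calmodulin-binding protein of dendrites, went from 3.1 and 2.8 RPKM to 71.3 and 73.0 and rose by 3.64 ± 0.10. Camk2n1, an inhibitor of the kinase CaMKII, rose by 2.26 ± 0.12, and the synaptic adhesion gene Lrrtm3 by 1.99 ± 0.12.

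Of 42 ion channel genes, 24 were higher and 6 lower (median 0.46), with 13 higher without either E13.5 library. The pacemaker channel gene Hcn2 rose by 2.0 ± 0.14 and the potassium channel gene Kcnd2 by 1.68 ± 0.13. The lower members included Cacna1g and Kcnma1, which fell by 3.34 ± 0.13 and 1.68 ± 0.12, and each of which has over 20 RefSeq transcripts. Without genes of over 20 transcripts, 21 of 33 channel genes were higher and 1 was lower. The same property marked Rims2 among the vesicle genes (8.8 and 7.8 RPKM, then 1.0 and 0.8) and Ank3 among the cytoskeletal genes (21.8 and 24.9, then 1.7 and 0.9), which each have over 50.

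Of 47 cytoskeleton and axon growth genes, 22 were higher and 11 lower (median 0.34), and 20 of 38 were higher and 5 lower without genes of over 20 transcripts. With 1 E13.5 library left out, 15 or 19 of the 47 were higher and 4 lower. With median scaling 31 were higher and 7 lower, and without normalization 36 and 3. Thy1, a surface glycoprotein of mature neurons, rose by 3.63 ± 0.14, from 0.7 and 0.3 RPKM to 24.5 and 25.6. Cntn1 (contactin) rose by 2.22 ± 0.17 and the secretory granule gene Scg2 by 1.93 ± 0.16. Axon guidance genes were divided, with 12 of 47 higher and 21 lower (median -0.25). Without normalization 21 were higher and 8 lower, and without the first and the second E13.5 library 9 and 8 were lower and 6 and 4 higher. Robo3, a receptor of commissural axons, fell by 2.43 ± 0.13, from 10.6 and 11.7 RPKM to 2.5 and 1.7. The secreted cue Slit2, the receptor Dcc and the semaphorin Sema5b fell by 1.68 ± 0.12, 1.60 ± 0.13 and 1.79 ± 0.10. The ephrin gene Efna3 and the semaphorin gene Sema7a rose by 1.71 ± 0.10 and 1.17 ± 0.10.

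**Figure D4:**
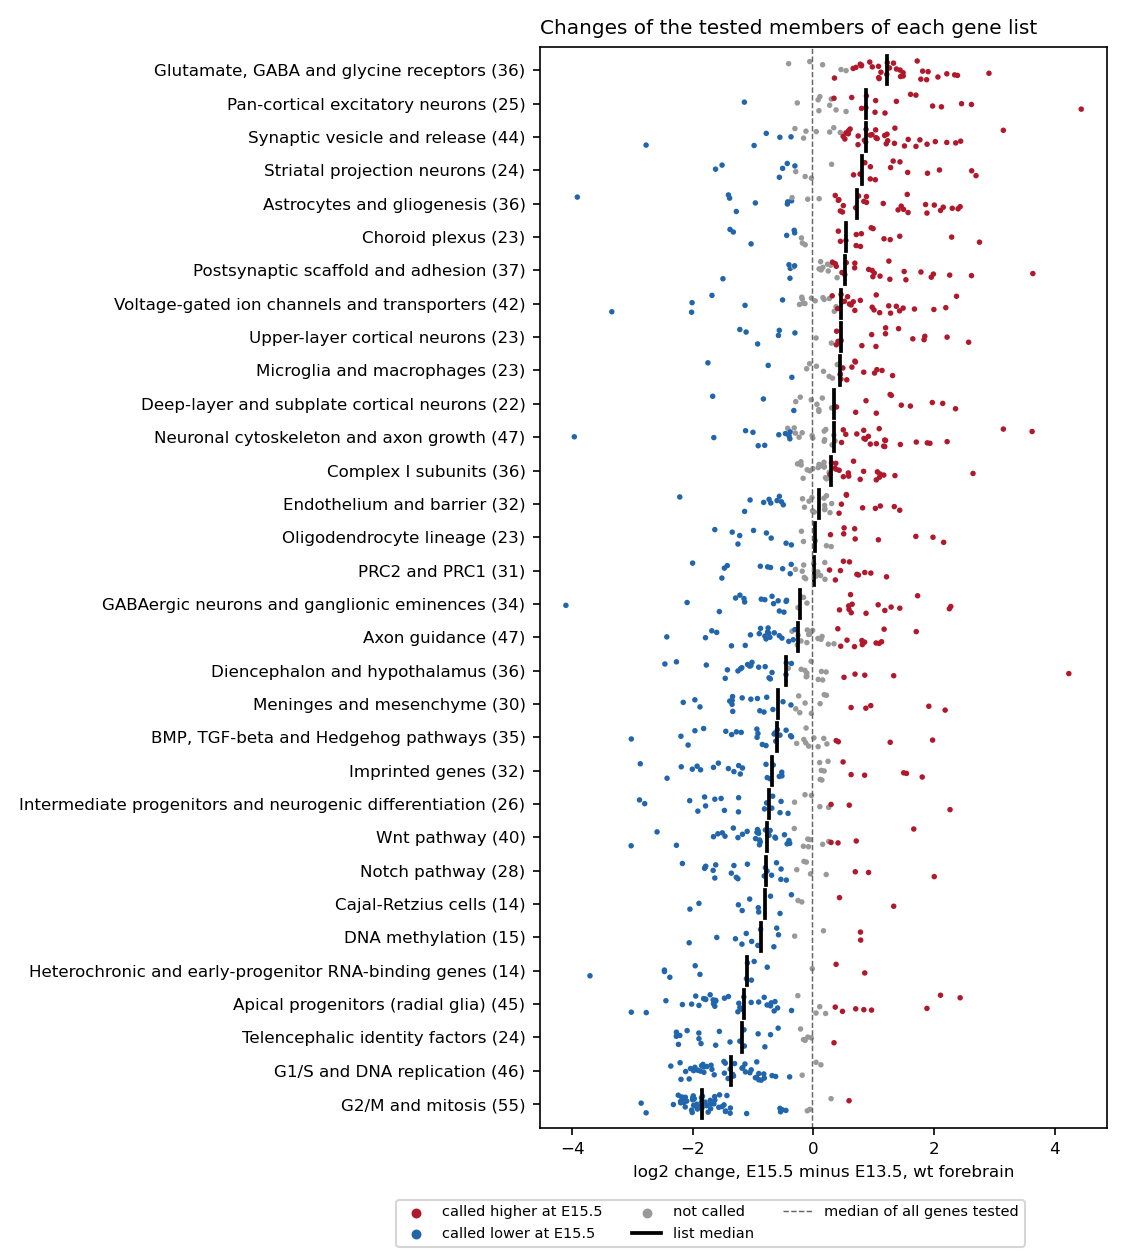
Change (E15.5 minus E13.5, normalized log2 scale) of every tested member of 32 gene lists, coloured by call, with the list median as a bar, the median of all genes as a dashed line and the number of members in parentheses. The lists are ordered by median, from G2/M and mitosis (-1.84) to neurotransmitter receptors (1.22).

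Astrocyte and gliogenesis genes rose at an age when few astrocytes are thought to be present. Of 36 tested, 25 were higher and 8 lower, with a median of 0.73. Without the first and the second E13.5 library 18 and 14 were higher and 5 lower, and without normalization 29 and 4. Aldh1l1, an astrocyte marker, was at 3.4 and 2.0 RPKM and then at 25.4 and 22.7, and rose by 2.30 ± 0.18. Hepacam, an astrocyte adhesion protein gene, rose by 2.40 ± 0.11, from 0.3 and 0.2 RPKM to 8.4 and 7.6. Slco1c1, a thyroid hormone transporter gene of glia and brain vessels, rose by 2.15 ± 0.11. Slc1a3, the glutamate transporter GLAST of radial glia and astrocytes, went from 23.5 and 25.3 RPKM to 71.0 and 57.9. Its change of 0.70 ± 0.12 lost its call without either E13.5 library (adjusted p = 0.087 and 0.066). Sox9 and Hey1 did not follow these genes. Sox9, which starts gliogenesis, fell by 1.41 ± 0.13, and Hey1, a Notch target, by 1.28 ± 0.09. Fgfr3, a growth factor receptor of progenitors and astrocytes, went from 49.0 and 50.1 RPKM to 4.1 and 4.0 and fell by 3.91 ± 0.10. It was at 2.2 in both EED-cKO libraries.

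Of 23 oligodendrocyte lineage genes, 9 were higher and 9 lower (median 0.03), against 33.0% and 33.8% of all genes. This balance depended on the scaling, with 11 higher and 4 lower without normalization. The neighbouring genes Olig1 and Olig2, which specify this lineage, moved apart. Olig1 rose by 2.16 ± 0.12, from 5.5 and 4.8 RPKM to 41.0 and 35.5, and Olig2 fell by 0.99 ± 0.10, from 18.9 and 20.3 to 14.7 and 12.9. Both held their direction and their call under every alternative in which they were tested. No alternative separates age from processing. Opcml and Lhfpl3 rose by 1.98 ± 0.17 and 1.70 ± 0.11. With 1 E13.5 library left out, 5 or 6 genes were higher and 4 lower, and without the second E15.5 library 5 were lower.

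Notch pathway genes, which hold progenitors undifferentiated, were lower in 20 of 28 and higher in 3 (median -0.78), with 14 and 13 lower without the first and the second E13.5 library and 12 lower and 7 higher without normalization. Dll1, a ligand, fell by 1.79 ± 0.10, from 38.4 and 42.2 RPKM to 17.0 and 16.9. The receptor gene Notch1 fell by 2.17 ± 0.12, the receptor-modifying enzyme gene Mfng by 1.8 ± 0.11, and the target gene Hes5 by 1.25 ± 0.09. Dlk2, a non-canonical ligand gene, rose by 2.0 ± 0.12.

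Wnt pathway genes were lower in 29 of 40 and higher in 4 (median -0.78), with 19 and 18 lower and 2 higher without the first and the second E13.5 library and 18 lower and 8 higher without normalization. Rspo1, a secreted amplifier of Wnt signals, fell by 3.02 ± 0.15, from 15.1 and 18.3 RPKM to 2.4 and 1.7. Tcf7l1, a nuclear repressor of the pathway, fell by 2.59 ± 0.11, and the ligand gene Wnt4 rose by 1.66 ± 0.13. BMP, TGF-beta and Hedgehog genes were lower in 22 of 35 and higher in 4 (median -0.60). Without normalization 10 were higher and 10 lower, and without the first and the second E13.5 library 12 and 11 were lower and 2 higher. The Hedgehog co-receptor genes Cdon and Gas1 fell by 2.20 ± 0.11 and 2.08 ± 0.10, and the effector gene Gli2 by 1.96 ± 0.12. Id2, an inhibitor of bHLH factors and a BMP target that cortical neurons also express, rose by 1.98 ± 0.09, from 41.4 and 37.6 RPKM to 260.8 and 302.1. In the FGF pathway 11 of 30 genes were higher and 8 lower, with 6 higher without either E13.5 library and 19 higher and 7 lower without normalization. Among all genes tested 33.0% were higher and 33.8% lower. Fgf15, a ligand of the early forebrain, fell by 2.22 ± 0.14, and Fgf12, an intracellular relative that binds sodium channels, rose by 2.85 ± 0.12.

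The Polycomb genes, targeted in the other arm of the study, were called about as often as all genes tested. Of 31 genes of PRC2 and PRC1, 10 were higher and 10 lower, against 33.0% and 33.8% of all genes. Their median was 0.01, and without normalization 17 were higher and 5 lower. None of the higher members is named here, so the genes that follow stand for the lower ones only. Of the core PRC2 subunits, Eed, Ezh2 and Suz12 fell. Eed was at 31.2 and 34 RPKM at E13.5 and at 25.8 and 27.9 at E15.5, a fall of 0.88 ± 0.10 (adjusted p = 0.0003). Ezh2, the methyltransferase subunit, went from 98.5 and 107.7 RPKM to 64.0 and 68.5 and fell by 1.43 ± 0.09. Suz12 fell by 1.48 ± 0.10. In PRC1, Cbx2 fell by 2.0 ± 0.12, from 38.1 and 42.2 RPKM to 16.3 and 12.5. Without the first and the second E13.5 library 2 and 1 Polycomb genes were higher and 5 and 6 lower, and without the second E15.5 library 6 were higher. Of 15 DNA methylation genes, 11 were lower and 2 higher (median -0.87). Without normalization 6 were lower and 3 higher, and 1 was higher without the second E13.5 library or either E15.5 library. Uhrf1, which brings the maintenance methyltransferase to replicated DNA, fell by 2.06 ± 0.10.

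Of 32 imprinted genes, 20 were lower and 6 higher (median -0.69). Without the second E13.5 library 13 were lower, and without normalization 13 were lower and 12 higher. With median scaling 18 were lower and 9 higher. Grb10, a growth inhibitor expressed from 1 parental allele, was at 153.1 and 173.3 RPKM and then at 42.9 and 34.5, and fell by 2.87 ± 0.12. The growth-related genes Peg10 and Plagl1 fell by 2.19 ± 0.15 and 2.01 ± 0.14. Snrpn rose by 1.54 ± 0.09, from 73.9 and 67.7 RPKM to 372.6 and 426.0. It shares exons with Snurf, which went from 6.0 and 5.4 RPKM to 573.4 and 601.5, so the levels of this pair are uncertain.

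Energy and lipid genes were more often higher than lower. Of 36 complex I subunit genes of the respiratory chain, 19 were higher and 0 lower (median 0.29), with 9 higher without either E13.5 library and 4 lower without the second E15.5 library. With median scaling 30 were higher, and without normalization all 36. With the trend on transcript length removed, 17 were higher and 6 lower. Ndufa11 rose by 2.65 ± 0.09. Of 20 glycolysis and hypoxia genes, 12 were higher and 4 lower (median 0.55), and 15 and 2 without normalization. The neuronal enolase gene Eno2 rose by 2.19 ± 0.11, from 8.8 and 7.3 RPKM to 59.9 and 59.3, the hypoxia-inducible gene Higd1a rose by 2.0 ± 0.10, and the hexokinase gene Hk2 fell by 1.94 ± 0.11. Of 23 sterol synthesis genes, 10 were higher and 4 lower (median 0.19), with 3 higher and 1 lower without either E13.5 library. With median scaling 14 were higher and 3 lower, and without normalization 20 and 1. Fdft1 (squalene synthase) rose by 1.98 ± 0.08, from 33.9 and 34.8 RPKM to 227.6 and 252.0, and Fdps by 1.58 ± 0.08.

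Other cell types of the dissected tissue moved too. The embryonic globins of primitive red cells had the greatest falls of the genes named as extremes. Hbb-y, the embryonic beta-like globin of yolk-sac red cells, was at 2220.2 and 3538.5 RPKM at E13.5 and at 3.5 and 4.4 at E15.5. Hba-x and Hbb-bh1, the other embryonic globins, went from 264.4 and 447.2 RPKM to 2.0 and 1.9, and from 70.1 and 88.9 to 0.1 and 0.4. EED-cKO forebrain had 10.7 and 9.4 RPKM of Hbb-y, above both E15.5 wt libraries, and E13.5 spinal cord had 1593.5 and 1894.9. The adult globin genes, left out of the tests as near-identical copies, remained abundant, with Hba-a1 at 2963.9 and 3822.9 RPKM and then 2671.6 and 3607.5.

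Choroid plexus genes were higher in 14 of 23 and lower in 6 (median 0.54), with 9 and 10 higher and 4 and 3 lower without the first and the second E13.5 library, and 15 higher and 3 lower without normalization. Ttr, the thyroxine carrier secreted by this epithelium, was at 191.6 and 194.1 RPKM and then at 2072.2 and 2232.5, and rose by 2.29 ± 0.07. Folr1, a folate receptor gene, rose by 1.43 ± 0.13. Otx2, which specifies the plexus, fell by 1.38 ± 0.16, and Rspo2 fell by 1.33 ± 0.12. The summed RPKM of the 26 plexus genes, per 10000 RPKM of included genes, was 14.4 and 14.8 at E13.5 and 43.6 and 45.1 at E15.5. Without Ttr, the other 25 genes summed to 8.68 and 9.03 at E13.5 and to 8.15 and 8.33 at E15.5, so the rise of the sum was that of Ttr. Ptgds, a prostaglandin synthase made by plexus, meninges and glia, rose the most of all genes named by the rule for extremes, from 2.0 and 2.3 RPKM to 262.1 and 285.5 (5.76 ± 0.10). How much of its rise comes with the plexus was not tested. The ciliogenesis genes Ccno and Mcidas fell by 1.8 ± 0.12 and 1.39 ± 0.13. Of the 12 tested ependymal and ciliated cell genes, their list, 4 were lower and 1 higher, near the 33.8% lower among all genes. Without normalization 3 were lower and 6 higher.

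Of 32 endothelial genes, 9 were higher and 10 lower (median 0.10), against 33.0% and 33.8% of all genes. The split depended on the scaling, with 19 higher and 2 lower without normalization. There were 5 and 4 higher and 3 and 4 lower without the first and the second E13.5 library, and 6 lower without the second E15.5 library. Plvap, found in leaky vessels and lost as the blood-brain barrier forms, fell by 2.22 ± 0.11, from 12 and 11.3 RPKM to 2.8 and 2.7. Cldn5, a tight junction gene of the barrier, rose by 1.03 ± 0.09, from 30.5 and 27.7 RPKM to 96.9 and 104.8. Pan-endothelial Pecam1 was at 14.1 and 15.9 RPKM and then at 15.9 and 13.7, with overlap between the ages. Higd1b, a pericyte gene, rose from 0.4 and 0.2 RPKM to 5.9 and 9.0. Of 23 microglia and macrophage genes, 13 were higher and 3 lower (median 0.45), with 6 and 4 higher without the first and the second E13.5 library and 7 without the second E15.5 library. The chemokine gene Pf4 rose by 1.14 ± 0.13, from 6.8 and 6.1 RPKM to 19.8 and 23.7, and Sall1, which neural progenitors also express, fell by 1.75 ± 0.11.

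Meningeal and mesenchymal genes were lower in 17 of 30 and higher in 5 (median -0.59), with 11 and 10 lower without the first and the second E13.5 library and 11 lower and 7 higher without normalization. Col1a1, the type I collagen gene, was at 51.8 and 47.9 RPKM and then at 36.6 and 25.2, a fall of 1.35 ± 0.15. Fn1 (fibronectin) and the retinoic acid-binding protein gene Crabp2 fell by 2.16 ± 0.13 and 1.96 ± 0.11, and Fmod (fibromodulin) rose by 1.91 ± 0.13. Their summed level was 15.1 and 15.9 per 10000 at E13.5 and 8.82 and 6.65 at E15.5. Of 6 tested genes of muscle, cartilage and epidermis, 4 were lower and 1 higher (0 higher without the second E13.5 library, 2 without normalization). The lower ones included Col2a1 and Acta1, which fell by 2.80 ± 0.13 and 2.51 ± 0.15. The part of these other tissues in the changes of neural genes was not tested.

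The libraries also differed in sex-linked transcripts. Xist, made only from an inactive X chromosome, was at 0.0 and 75 RPKM in the first and second E13.5 libraries and at 53.5 and 33.0 at E15.5. Its change of 1.75 ± 1.79 was not called (adjusted p = 0.41), was -1.60 without the first E13.5 library and was 5.14 without the second. The Y-linked Eif2s3y was at 28 and 0.0 RPKM at E13.5 and at 0.6 and 0.3 at E15.5, and Ddx3y at 10.7 in the first E13.5 library and 0.0 in the other wt forebrain libraries. Thus only the first E13.5 library lacked Xist, and in the other wt forebrain libraries these Y-linked genes were at 0.6 RPKM or less. The part of sex in the changes above was not tested.

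The genes with the most extreme changes included several that were listed at 0.0 at 1 age. Adnp, a homeobox gene, was at 62.4 and 62.0 RPKM at E13.5. It was listed at 0.0 in both E15.5 libraries and in both EED-cKO libraries. The read-through transcript Dpm1-adnp, which joins it to the neighbouring Dpm1, went from 1.0 in both E13.5 libraries to 74.1 and 65.5 RPKM. Dpm1, chosen here after its values were seen, went from 17.3 and 17.8 to 0.2 in both. Raver1 and Dynlt1c were likewise listed at 0.0 in both E15.5 libraries, from 52.7 and 53.1 and from 39.9 and 54.6 RPKM. Tmsb15l and Bricd5 were listed at 0.0 in both E13.5 libraries, and reached 36.2 and 52.0 and 19.5 and 20 RPKM at E15.5. Exons of Tmsb15l overlap those of Tmsb15b1 and Tmsb15b2, so its levels are uncertain. Naa11 went from 0.1 in both to 40.5 and 48.9, and Uchl1os, antisense to the abundant neuronal gene Uchl1, from 0.9 and 0.8 to 28 and 36.1. The sequencing was not stranded, so reads of that pair cannot be told apart. Wdr89, Lars2, Degs2 and Supt4b fell by 5.30 ± 0.11, 5.15 ± 0.10, 5.13 ± 0.14 and 4.94 ± 0.13. Each was below 10 RPKM in the EED-cKO libraries. In E13.5 spinal cord they were at 55.1 and 53.6, 255.8 and 151.2, 33.1 and 33.0, and 22.1 and 21.6 RPKM. Adnp was at 55.1 and 56.6 there, Raver1 at 31.1 and 29.6 and Dynlt1c at 53.6 and 72.3. Tmsb15l and Bricd5 were at 0.0 in both cord libraries. They reached 28.9 and 25.7 and 17.5 and 16.0 RPKM in EED-cKO forebrain. Age and processing cannot be told apart for these genes, as for all others compared here. Vsnl1, a neuronal calcium sensor gene, was among the rises, from 2.4 and 1.2 RPKM to 58.1 and 48.9.

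The change also followed the number of annotated transcripts. Genes with over 50 RefSeq transcripts (33 genes) had a median change of -2.08, and 75.8% of them were lower by at least 1. Genes with 21 to 50 transcripts (395 genes) had a median of -0.30, and those with 1 transcript (3378 genes) a median of 0.09. Ncor1, a co-repressor gene with 53 transcripts, was at 41.1 and 42.4 RPKM at E13.5 and at 0.9 and 0.8 at E15.5. It stood at 0.8 and 0.9 in the EED-cKO libraries and at 39.3 and 39.0 in E13.5 spinal cord, so its level separated the ages and not the tissues or genotypes. Sox6, with 51 transcripts, went from 15.1 and 15.7 RPKM to 0.3 and 0.2. By transcript length, the median change was 0.21 up to 1000 bases and -0.43 over 8000 bases. These medians come from the wt forebrain libraries only, and the same trends were not tested in spinal cord or EED-cKO forebrain. The E13.5 and E15.5 wt forebrain libraries differ in this way. Age and processing cannot be told apart for such genes, nor for the other genes compared here.

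**Figure D5:**
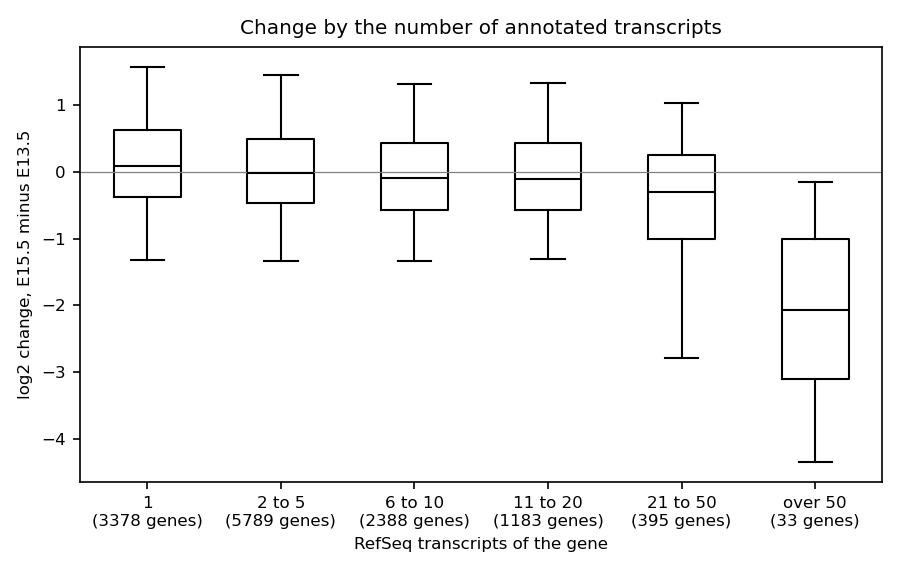
Change (E15.5 minus E13.5, normalized log2 scale) of tested genes by their number of RefSeq transcripts. Boxes give the median and quartiles and whiskers the 5th and 95th percentiles. The 33 genes with over 50 transcripts lie mostly below -1.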

How the data were processed

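The authors deposited 1 table of RPKM values per gene symbol for all 8 libraries, rounded to 0.1. Per the labels' protocols, libraries were unstranded and single-end, and per the submitters' processing notes 2 genome builds were used, mm9 and GRCm38, with no library assigned to either. The aligner and counter are not given in the sources used here. The E15.5 columns were matched to the names sorted alphabetically. Multi-copy, predicted and small RNA genes were left out by name. A gene was then kept if it reached 1 RPKM in 2 or more of the 4 libraries. Values were taken as log2(RPKM + 1), quantile-normalized and fitted in limma 3.58.1 (R 4.3.3, eBayes with trend, two-sided, Benjamini-Hochberg over all genes tested), without a replicate term. The test was checked on simulated data in which few genes changed. In these data 66.8% of genes were called, so that check does not cover how the normalization behaves here. The members and lists were chosen with earlier results of these data known. Named were fixed genes, the 12 highest and 12 lowest called genes without overlap at 2 RPKM or more, and per list up to 4 called members in each direction. Some genes this rule names are not reported here. Members whose call depended on an alternative were mostly passed over. Transcript numbers and promoters came from RefSeq (GRCm38.p6), and transcript lengths from GENCODE. Alternatives changed the scaling, pseudocount, filter, exclusions, row order, libraries and block. The 3 on transcript length, transcript number and overlapping exons were chosen after seeing the data. No read counts were used, so counting error is unknown.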

Additional observations from a re-analysis of the deposited data

How the results depend on the processing

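The numbers of genes higher and lower at E15.5 (4509 and 4622) stayed within 1.5 times under median scaling, ranks, other pseudocounts, other filters, all 8 libraries, no exclusions, the deposited row order, the length adjustment and without genes of over 20 transcripts. They were 8382 and 1711 without normalization. Where fewer genes were tested, they were 2849 and 2937 (genes that kept their row) and 2711 and 2783 (no overlapping exons). Leaving out each library in turn gave 2380 to 4024 higher and 2201 to 4081 lower, the lowest without the second E13.5 library. There the lone library of an age is assumed to vary like the others. With a replicate block they were 4735 and 4872, but the labels share only numbers, and differences between replicates correlated across ages with r = 0.088 over genes. With names left in the deposited row order, directions turned for Lin28b (0.87), Slc1a3 (-3.26), Aldh1l1 (-1.19), Nrgn (-2.13), Sox3 (0.11), Npy (-4.04), Cldn5 (-5.15), Fgf12 (-1.79) and Ndufa11 (-1.80), each of which moves between rows. Xist ranged from -1.60 to 5.14 with a library left out, and its block value was called. The cause was not tested.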

Other observations

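Further lists had calls in both directions or held few tested genes, and their counts depended on the scaling or on single libraries. Among all genes tested 33.0% were higher and 33.8% lower. Of 19 immediate early and stress genes, which respond within minutes to activity or handling of tissue, 8 were higher at E15.5 and 7 lower (median 0.11). Without normalization 12 were higher and 0 lower, and without the first and the second E13.5 library 5 and 3 were higher and 2 and 1 lower. Of 20 targets of p53, 8 were higher and 6 lower (median 0.12). Without normalization 14 were higher and 2 lower. Without the first and the second E13.5 library 2 were higher and 2 and 3 lower, and without the second E15.5 library 5 were higher. Of 18 pericyte and mural cell genes, 6 were higher and 5 lower, against 4 and 2 without either E13.5 library and 9 and 2 without normalization. Of 11 genes of JAK-STAT signalling, the pathway that starts astrocyte production, 8 were lower and 2 higher (median -0.51), but 1 was lower and 3 were higher without normalization, and 2 and 1 were lower and 0 higher without the first and the second E13.5 library. Without the second E15.5 library 5 were lower. Of 12 tested ependymal and ciliated cell genes, 4 were lower and 1 higher, a balance that turned without normalization, with 3 lower and 6 higher. Without the first E15.5 library 3 were higher, and without any 1 of the other 3 libraries 0 were. Of 16 eye and retina genes, 4 passed the filter on low values, and their summed level was 0.282 to 0.338 per 10000 RPKM of included genes.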
